A study of Mus musculus with 28 samples.

Results

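The 200 features described here were those whose levels differed most among wild-type splenic plasma cell libraries. They were taken from 40303 features of unnamed identity. A feature was eligible if its mean in the wild-type plasma cell libraries was at least 20 CPM (the feature's count divided by the library total, times 1000000) and lay within 4-fold of its mean in both wild-type B cell subsets. Of the 40303 features, 5691 reached that mean and 4828 were eligible. The eligible features were ranked by the standard deviation (SD) of log2(CPM + 1) over the 6 wild-type plasma cell libraries, and the 200 with the largest SD are the members. The members were thus chosen by their mean CPM in the 3 WT groups and their spread over the WT plasma cell libraries. That spread and the covariation among those 6 libraries follow from the choice and are given as a description, without a test.

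The study sorted splenic B cell subsets of female mice, some of them lacking Xist in B cells and some with signs of lupus, and sequenced total RNA from 28 bulk samples. CD23+ B cells came from 6 wild-type (WT) mice with low antibodies to double-stranded DNA (dsDNA), 3 Xist conditional knockout (cKO) mice with low dsDNA antibodies, called cKO low, and 3 cKO mice with high dsDNA antibodies, called cKO high. CD11c+ age-associated B cells (ABC) came from 4 WT mice with low dsDNA and 3 cKO high mice. The B220- CD138+ cells that the labels call long-lived plasma cells (LLPC) came from 6 WT mice with low dsDNA and 3 cKO high mice. The design states that WT and cKO low mice were healthy and matched to the cKO high mice in age and sex. Neither the age itself nor the promoter driving the deletion is given in the sources used here. In ABC and LLPC no cKO low library was used, so the deletion and the high-antibody disease state change together there and cannot be told apart. The labels call the libraries biological replicates, and a number in the names of the deposited tables, read here as the mouse, recurs across subsets and gives 12 mice.

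Plasma cells are the end stage of B cell differentiation and devote much of their messenger RNA to a few secreted-antibody genes, while many general B cell genes are switched off. CD23+ cells of the spleen are mainly resting follicular B cells that recirculate and enter germinal centres. Age-associated B cells are antigen-experienced cells that accumulate with age and in lupus, and many carry CD11c and T-bet. The members are by construction features at like levels in the 3 WT subsets, so features restricted to plasma cells or to B cells are left out.

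Gene names are not paired with the feature IDs in the files, and 0 of the IDs matched the annotation tables used here. The members' functions, the targeted gene Xist and the defining markers of the sorted cells were therefore not read from these data, and no sequence is shown. Library totals ran from 2133489 to 23866710 counts, and those of the LLPC WT libraries from 4651060 to 10599602. The 10 most abundant features of a library took 12.6 to 18.4% of the counts in CD23+ and ABC, 47.8 to 51.3% in LLPC cKO high and 40.5 to 50.2% in LLPC WT replicates 1 to 5, but 27.4% in LLPC WT replicate 6. The 95% Wilson intervals of these shares were at most 0.0949 percentage points wide and cover counting error only. LLPC WT replicate 6 thus stood apart from the other plasma cell libraries, and results that rest on it are given with and without it. None of the 10 leading LLPC features was a member.

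The members' SD over the LLPC WT libraries ran from 2.12 at rank 1 to 0.9424 at rank 200 on the log2(CPM + 1) scale, with a median of 1.13. The next feature outside the list had an SD of 0.940772, and the median over the 4828 eligible features was 0.335. Counting error alone would give a median member an SD of 0.109, and 0.255 at most; that the members lie above these values follows from the ranking. The lowest count of any member in an LLPC WT library was 8 and the median was 239. Without replicate 6 the median SD was 0.767 for the members and 0.233 for the eligible features.

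In libraries that the ranking did not use, the members also varied somewhat more than eligible features did. Their median SD was 0.326 over the LLPC cKO high libraries, against 0.159 for eligible features. It was 0.167 against 0.127 in CD23+ WT, 0.202 against 0.148 in CD23+ cKO low and 0.184 against 0.131 in CD23+ cKO high. In ABC WT it was 0.224 against 0.170, and in ABC cKO high 0.171 against 0.118. The spread was thus much the widest in the LLPC WT libraries, which chose the members, and narrower in the 3 libraries of cKO high plasma cells.

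**Figure D1:**
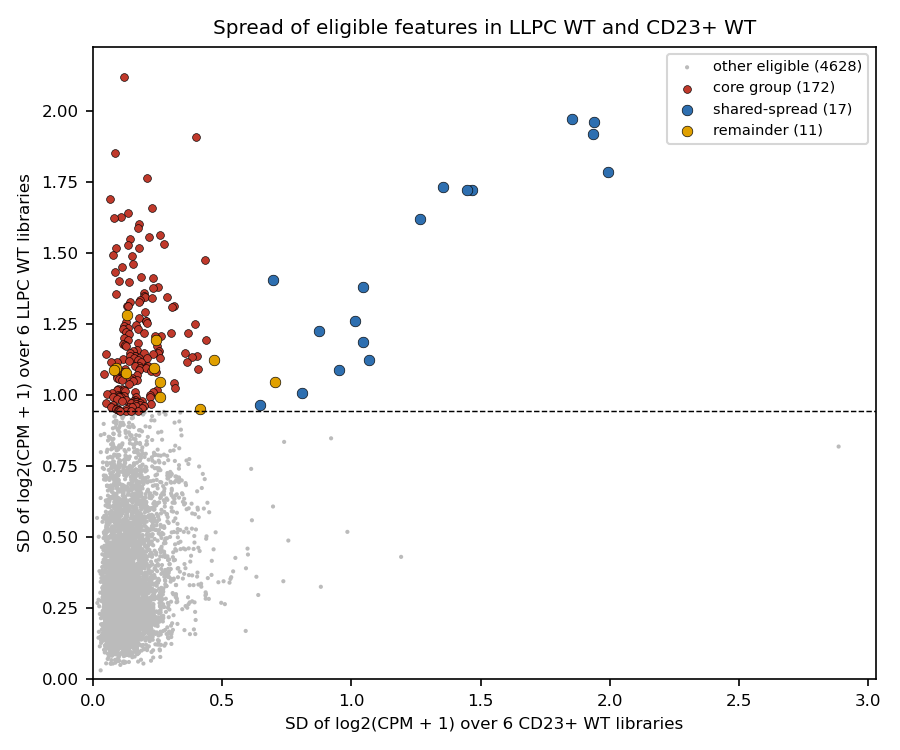
SD of log2(CPM + 1) over the 6 LLPC WT libraries (y axis) against that over the 6 CD23+ WT libraries (x axis), 1 point per eligible feature; the dashed line is the SD of the last member. Most members have a small SD in CD23+ WT, and the 17 blue points have a large SD in both subsets.

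The members moved together across the LLPC WT libraries. A single axis, the leading principal component of their log2(CPM + 1) values, held 90.8% of the members' variance over the 6 libraries, against 81.0% for all eligible features. Without replicate 6 it held 81.0% and 59.1%. The median Pearson r between pairs of members over the 6 libraries was 0.963, and 90.7% of pairs had r above 0. For pairs of eligible features the median was 0.439, with 67.1% above 0. All these points share their libraries and library totals, so a library that is high or low overall raises them together.

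Of the 200 members, 189 followed that axis with r of at least 0.7, and 0 ran against it with r of -0.7 or lower. All 189 were highest in LLPC WT replicate 6. Among eligible features 3077 of 4828 (63.7%) were highest there. After the values had been seen, the 189 were divided by their spread in CD23+ WT. A core group of 172 members had an SD of at most 0.5 there. The other 17, called the shared-spread group, had an SD above 0.5. The values on either side of that limit were 0.469 and 0.645. The 11 members that did not follow the axis are called the remainder.

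**Figure D2:**
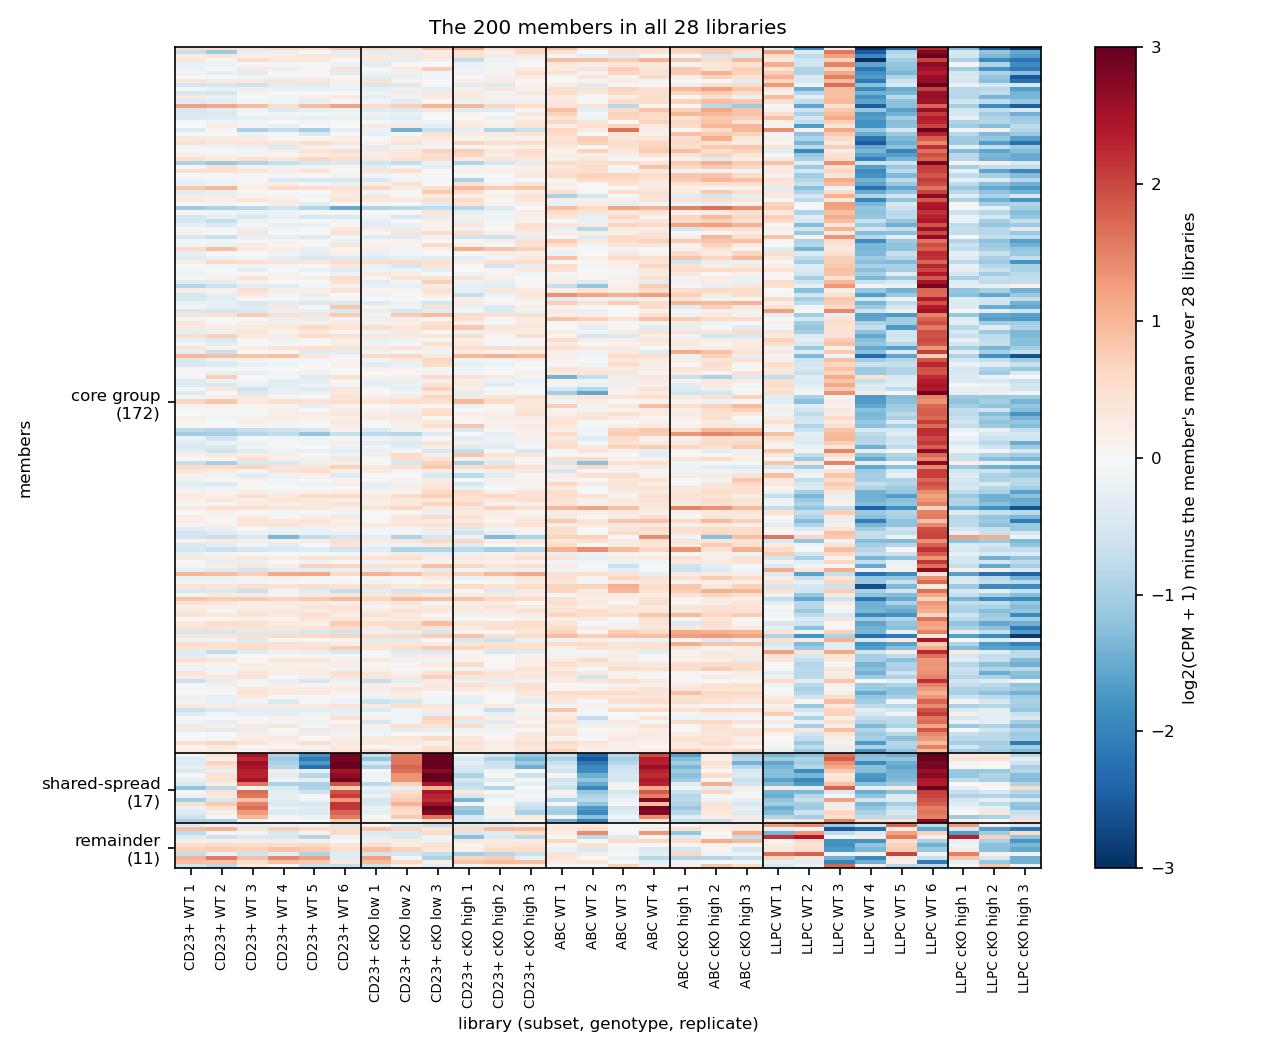
The 200 members (rows, in 3 sets) in all 28 libraries (columns). Colour is log2(CPM + 1) minus the member's mean over the 28 libraries, from blue (lower) to red (higher). LLPC WT replicate 6 is red for nearly every core and shared-spread member, and the shared-spread members are also red in CD23+ WT replicates 3 and 6, CD23+ cKO low replicate 3 and ABC WT replicate 4.

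Among the WT plasma cell libraries the core group was high in replicates 1, 3 and 6 and low in replicates 2, 4 and 5. The core member of largest SD, MGP_BALBcJ_G0020470, had 99.7, 29.7, 138, 8.59, 20.7 and 558 CPM in LLPC WT replicates 1 to 6, from counts of 91 to 3332. Its level in replicate 6 was above every CD23+ WT library (158 to 200 CPM, median 167) and every ABC WT library (151 to 218 CPM), while replicates 2, 4 and 5 were far below them. In LLPC cKO high it had 45.6, 19.2 and 12.996 CPM, all within the range of the LLPC WT libraries and all below the 19 B cell libraries. The level well above B cells thus rests on replicate 6 alone. Every other plasma cell library, at 8.59 to 138 CPM, lay below all B cell libraries, which kept this feature within a narrower range.

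The same order held across the core group. Its members were chosen for following the leading component over these same libraries, so this order follows largely from the choice and is a description. The mean log2(CPM + 1) of the 172 core members was 5.52, 4.62, 5.85, 4.02, 4.38 and 7.16 in LLPC WT replicates 1 to 6. The 3 highest libraries were replicates 1, 3 and 6 for 169 of the 172, against 1990 of the 4828 eligible features (41.2%). The full order of replicate 6, then 3, then 1, then the rest held for 150 of 172, against 968 of 4828 eligible features. Replicate 4 was lowest for 136 of 172, against 35.8% of eligible features. The distance between replicates 6 and 4 was 3.14 on the log2 scale for the mean of the core group and 0.69 for the mean of the eligible features.

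In the B cell subsets the core group differed little, and was somewhat higher in ABC than in CD23+. Its mean log2(CPM + 1) was 5.34 ± 0.06 (SD, n = 6) in CD23+ WT, 5.40 ± 0.10 (n = 3) in CD23+ cKO low and 5.44 ± 0.07 (n = 3) in CD23+ cKO high. In ABC it was 5.57 ± 0.10 (n = 4) in WT and 5.67 ± 0.04 (n = 3) in cKO high. In LLPC it was 5.25 ± 1.16 (n = 6) in WT and 4.39 ± 0.29 (n = 3) in cKO high. Without replicate 6 the LLPC WT mean was 4.87 ± 0.78 (n = 5). The range of the LLPC WT libraries contained all other group means. The 3 CD23+ groups overlapped with each other in their library values (5.27 to 5.52), as did both ABC groups (5.43 to 5.71). The ABC WT libraries overlapped with the CD23+ libraries, and the ABC cKO high libraries (5.62 to 5.71) lay above all of them. The 3 LLPC cKO high libraries lay below all 19 of the CD23+ and ABC libraries. Eligible features as a whole did so too, so this is not particular to the core group. Their mean log2(CPM + 1) was 5.44 to 5.63 in LLPC cKO high and 6.24 to 6.34 in the CD23+ and ABC libraries. These levels are plain CPM, in LLPC cKO high libraries whose 10 leading features took 47.8 to 51.3% of the counts. With TMM the eligible mean was 6.18 in each LLPC cKO high library, and the core mean was 5.24, 5.00 and 4.84. How far LLPC lay below the B cells thus depends on the scaling.

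Feature by feature, the plasma cell libraries differed in how they lay to the B cells. LLPC WT replicate 6 exceeded every one of the 19 CD23+ and ABC libraries for 163 of 172 core members (94.8%), against 28.6% of eligible features. Replicate 3 exceeded all 19 for 62 of 172 (36.0%), against 10.6%, and was below all 19 for 20 (11.6%), against 60.1%. Replicate 1 was below all 19 for 40 of 172 (23.3%), against 54.9%. Core members lay below the B cells less often than eligible features did in replicates 1 and 3. The core group was chosen on these LLPC WT values, so its shares in LLPC WT follow largely from the choice and are a description. Replicates 2, 4 and 5 were below all 19 for 121, 150 and 135 of the 172 (70.3, 87.2 and 78.5%), against 67.4, 71.6 and 68.6% of eligible features. LLPC cKO high replicates 1, 2 and 3 were below all 19 for 118, 139 and 147 (68.6, 80.8 and 85.5%), against 68.2, 71.4 and 72.9%. The shares for LLPC WT replicate 2 and LLPC cKO high replicate 1 were near those of eligible features. All these shares use plain CPM. With TMM the share of eligible features below all 19 in LLPC WT replicate 4 was 24.1%, so the shares below the B cells depend on the scaling.

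**Figure D3:**
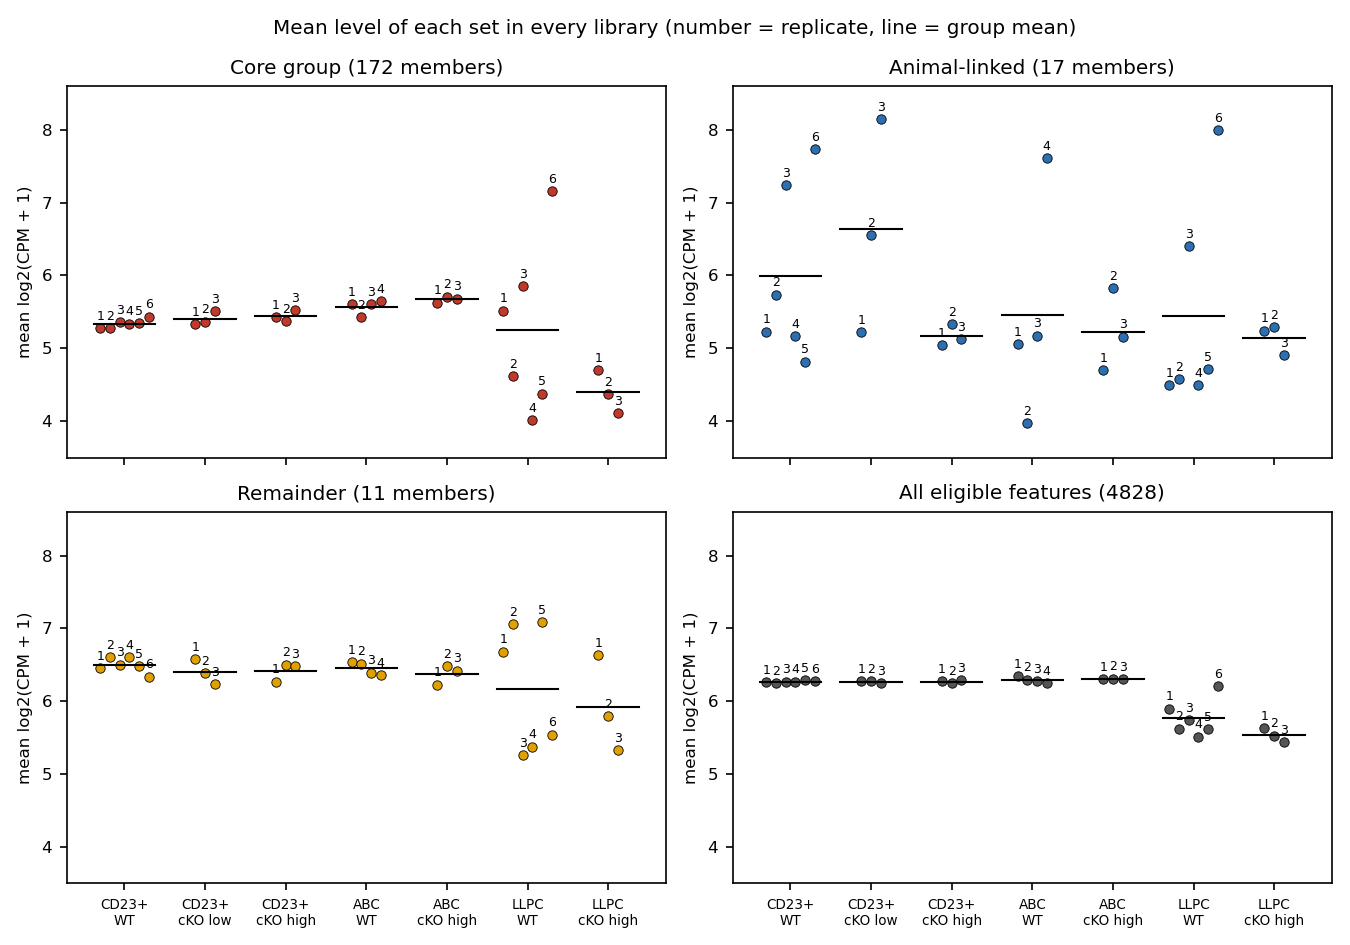
Mean log2(CPM + 1) of the core group, the shared-spread group, the remainder and all eligible features in each library. Each point is a library with its replicate number, and each line is the group mean. The panel titled Animal-linked is the shared-spread group, and a link to the animal was not tested. The core group runs from 4.02 to 7.16 in LLPC WT and from 5.27 to 5.71 over all CD23+ and ABC libraries.

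Eligible features as a whole were also higher in replicate 6, the library whose leading features took the smallest share of counts among the LLPC libraries. The median difference between replicate 6 and the median of the other 5 LLPC WT libraries was 2.46 on the log2 scale for the core group, which is 5.50-fold, and 0.49 for eligible features, which is 1.41-fold. With library sizes scaled by TMM the eligible difference was -0.09 and the core difference 1.84. With totals taken without the 10 leading features these were 0.03 and 1.99. Replicate 6 was the highest library for all 172 core members under each of these 3 scalings. The core group was chosen on these libraries, so this too follows largely from the choice. The count of core members whose level in replicate 4 was below every B cell library was 94 with TMM (54.7%, against 24.1% of eligible features) and 109 without the 10 leading features, so that count depends on the scaling.

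Replicate 6 also weighs on which features entered the list. It supplied a median of 46.2% of a member's summed CPM over the 6 libraries, against 21.9% for eligible features. Without it 130 of the 200 members (65.0%) would still have met the limits on mean level, against 91.9% of eligible features, and the list chosen anew would share 116 features with the present one.

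Features that mark the B cell subsets moved with the members only in part. A list of 168 features at least 16-fold higher in CD23+ WT than in LLPC WT, made from these same libraries and holding 0 members, summed to 2101, 1156, 1152, 951, 995 and 1858 CPM in LLPC WT replicates 1 to 6. It summed to between 42151 and 45241 CPM in the CD23+ libraries. The corresponding list of 125 ABC features summed to 1597, 921, 1005, 804, 697 and 1647 CPM in LLPC WT. Both lists were highest in replicates 1 and 6, while replicate 3, the next-highest library for the core group, had sums near those of replicate 2. A list of 121 features at least 16-fold higher in LLPC WT than in both B cell subsets had its lowest sum, 95138 CPM, in replicate 6, against 182101 to 270294 CPM in the others. Its mean log2(CPM + 1), which gives each feature equal weight, was 6.94, 6.75, 7.11, 5.87, 6.55 and 6.77 in replicates 1 to 6, so that replicate 6 was not the lowest by that measure and replicate 4 was. The part of other cells in the members' levels was not tested, and in bulk samples fewer cells of a type and less RNA per cell cannot be told apart.

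The 17 shared-spread members varied between mice in more than 1 sorted subset. MGP_BALBcJ_G0036582, the member of this group with the largest SD, had 25.1, 27.5, 206, 25.9, 23.5 and 577 CPM in LLPC WT replicates 1 to 6. In CD23+ WT replicates 1 to 6, from the same 6 mice, it had 59.1, 88.2, 372, 34.1, 18.6 and 491 CPM. In ABC WT it had 40.6, 12.5, 36.1 and 259 CPM, the last from the mouse of LLPC WT replicate 6. The mouse that was high in plasma cells was thus high in all 3 subsets, and the mouse of replicate 3 was high in both of its libraries.

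The cKO low mice also differed widely from each other in this feature. In CD23+ cKO low the feature had 39.3, 196 and 573 CPM, a span as wide as in WT. In the cKO high mice it had 58.1, 42.7 and 28.9 CPM in CD23+, 20.5, 78.7 and 31.2 CPM in ABC and 84.6, 81.5 and 36.5 CPM in LLPC. None of the 9 cKO high libraries reached the levels of the high WT or cKO low mice.

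The group as a whole followed this feature. Its mean log2(CPM + 1) was 4.49, 4.58, 6.40, 4.49, 4.71 and 7.996 in LLPC WT replicates 1 to 6 and 5.23, 5.74, 7.24, 5.17, 4.81 and 7.73 in CD23+ WT replicates 1 to 6. In ABC WT it was 5.05, 3.97, 5.17 and 7.61. It was 5.22, 6.55 and 8.14 in CD23+ cKO low. In cKO high it was 5.04, 5.33 and 5.12 in CD23+, 4.70, 5.82 and 5.16 in ABC and 5.24, 5.29 and 4.91 in LLPC. The CD23+ cKO low replicate 3 library had the highest mean of all 28.

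The mouse of LLPC WT replicate 6 gave the highest ABC WT value for 17 of the 17 members, against 59 of 172 core members (34.3%) and 17.4% of eligible features. The ABC values entered through the 4-fold limit on the ABC WT mean. Without ABC WT replicate 4 in that mean, 12 of the 17 would have met the limit, so the other 5 entered the list through the library in which they are high. The same mouse gave the highest CD23+ WT value for 17 of 17, against 39.0% of core members and 25.6% of eligible features. The mice of replicates 3 and 6 were the 2 highest in LLPC WT for 17 of 17 and in CD23+ WT for 16 of 17. The 17 were set apart by their spread over the CD23+ WT libraries and were chosen on the LLPC WT libraries. The counts in LLPC WT and CD23+ WT thus follow largely from the choice and are a description. The CD23+ WT mean also entered through its 4-fold limit. An SD above 0.5 in CD23+ WT was found for 18 of the 200 members (9.0%) and 42 of the 4828 eligible features (0.870%).

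Over the 6 WT mice the Pearson r between a feature's LLPC and CD23+ levels had a median of 0.917 in the shared-spread group (0.798 to 0.993) and a median Spearman rho of 0.771. In the core group the medians were 0.305 and 0.0857, and over eligible features 0.193 and 0.0857. With the 3 cKO high mice added, the median r over 9 mice was 0.851, 0.0656 and 0.117 in these 3 sets. Without the mouse of LLPC WT replicate 6 the median over 8 mice was 0.711 in the shared-spread group (0.328 to 0.914), -0.146 in the core group and 0.0328 in eligible features. Without the 2 LLPC libraries farthest from a feature's median, the median r of the shared-spread group was 0.311 over the 4 mice left, so the height of the relation over the WT mice rests on those libraries. A library total is shared by all features of a library, and no p is given for these values. The division used the spread of the same CD23+ values, and all 189 members were highest in LLPC WT replicate 6, so a difference in r between the core and shared-spread groups follows in part from the division.

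The shared-spread members also lay together in the number that ends the feature ID. That number was above 36000 for 14 of 17, against 1 of 172 core members, 54 of 4828 eligible features and 4579 of all 40303 features. What the number encodes is not given in the sources used here.

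**Figure D4:**
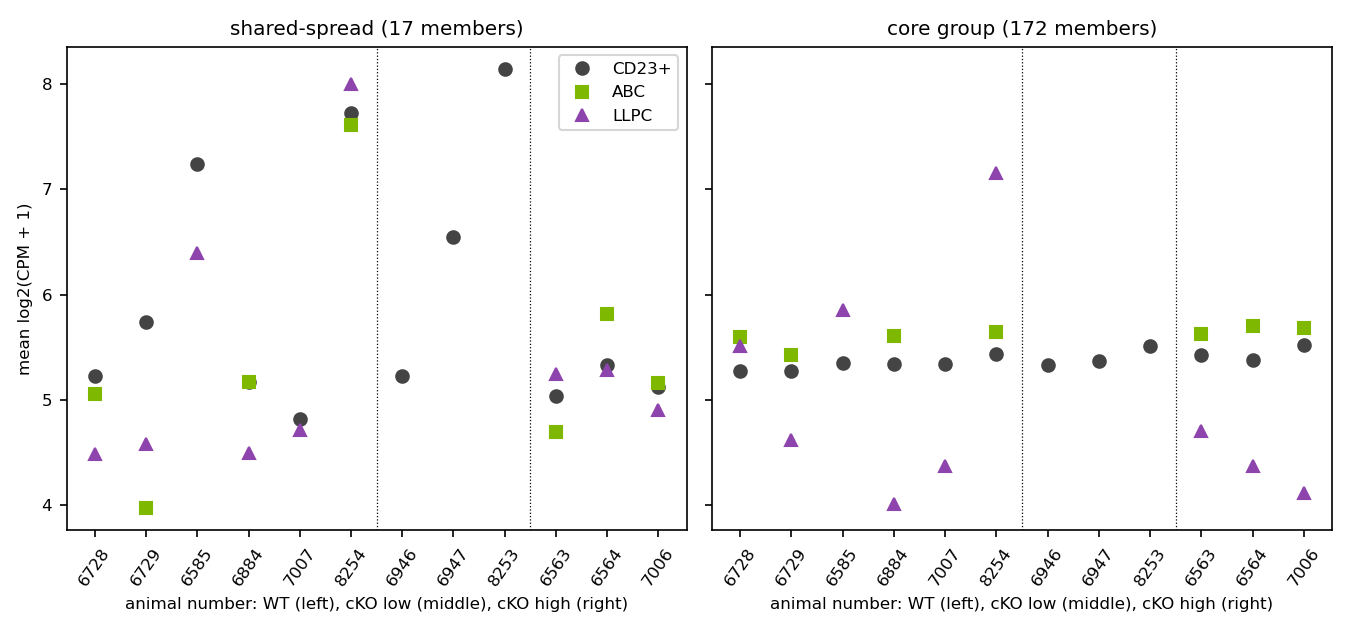
Mean log2(CPM + 1) of the 17 shared-spread members (left) and the 172 core members (right) for each mouse, by subset (circle CD23+, square ABC, triangle LLPC). In the left panel the subsets of 1 mouse lie close together for the highest WT mouse (7.61 to 7.996). In the right panel CD23+ and ABC lie between 5.27 and 5.71 whatever the LLPC value.

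The 11 remainder members followed other plasma cell libraries. For 9 of them the 3 highest LLPC WT libraries were replicates 1, 2 and 5, an order held by 497 of 4828 eligible features (10.3%) and by 0 of the 172 core members. The 2 members of the remainder with the largest SD are named here, chosen after their values were seen. MGP_BALBcJ_G0018440 had 155, 174, 29.6, 41.9, 218 and 36.9 CPM in LLPC WT replicates 1 to 6, and 45.8 to 58.8 CPM (median 54.4) in CD23+ WT. MGP_BALBcJ_G0033755 had 165, 186, 34.0, 40.6, 240 and 66.8 CPM in LLPC WT, and 265 to 413 CPM (median 314) in CD23+ WT. Replicates 1, 2 and 5 were above and replicates 3, 4 and 6 were below CD23+ WT for the former, while all 6 plasma cell libraries were below CD23+ WT for the latter.

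The LLPC WT libraries fell into separate levels for these 9 features. The 9 were picked by their 3 highest libraries, from a list ranked by SD over the same libraries. A gap between the levels thus follows from the choice, and its size is given as a description. The lowest of replicates 1, 2 and 5 exceeded the highest of replicates 3, 4 and 6 by 0.88 to 1.87 on the log2 scale, and the ratio of the mean CPM of the 3 high to the 3 low libraries was 3.30 to 5.05, with a median of 3.93. A gap of at least 1 was held by 11 eligible features in all. The mean log2(CPM + 1) of the 9 features was 6.98, 7.12, 4.94, 5.21, 7.23 and 5.39 in LLPC WT and 6.90, 5.72 and 5.08 in LLPC cKO high. In CD23+ and ABC it stayed between 6.21 and 6.78. Over eligible features the mean was 5.63, 5.53 and 5.44 in LLPC cKO high replicates 1 to 3, in the same order. The LLPC cKO high libraries, which the ranking did not use, thus also differed widely in the 9 features. The 9 share these libraries and were picked for moving together, so they are not 9 separate results. The mean over all 11 was 6.17 ± 0.87 (SD, n = 6) in LLPC WT and 5.92 ± 0.66 (n = 3) in LLPC cKO high, and 6.23 to 6.60 in the CD23+ and ABC libraries. Over the LLPC cKO high libraries the median SD of the 11 was 0.872, against 0.309 in the core group and 0.159 in eligible features.

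**Figure D5:**
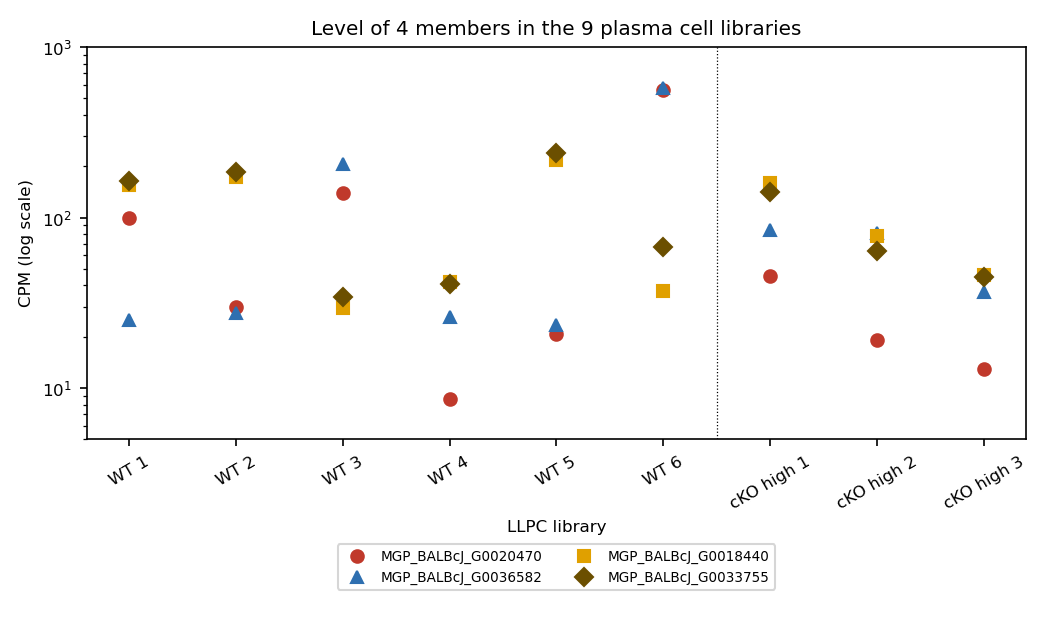
CPM (log scale) of 4 members in the 9 plasma cell libraries. The core member (circle) and the shared-spread member (triangle) are highest in LLPC WT replicate 6 at 558 and 577 CPM, while both remainder members (square and diamond) are high in LLPC WT replicates 1, 2 and 5 and in LLPC cKO high replicate 1.

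The comparison of plasma cells from cKO high and WT mice asks what the deletion together with the disease state changes in these cells. Of the 200 members 0 were called by edgeR's quasi-likelihood test at a Benjamini-Hochberg adjusted p under 0.05, where 0.00852% of the 11739 tested features were called, and 8 had an unadjusted p under 0.05, where the background was 4.6%. The smallest adjusted p of a member in edgeR was 0.751, and DESeq2 also called 0. The count at an unadjusted p under 0.05 depended on the libraries and the model. It was 80 of 200 without LLPC WT replicate 4 (1173 of 11642 features), 28 without WT replicate 5, 16 without WT replicate 2, 5 without WT replicate 6, 2 without WT replicate 1, and 0 without WT replicate 3, cKO high replicate 2 or cKO high replicate 3. It was 117 with the replicate number as a block (1260 of 11739 features), 46 of 199 with DESeq2 (906 of 21957) and 2 with no count filter. The fitted log2 fold change of cKO high against WT was negative for 196 of 200, with a median of -0.86 against -0.02 over all tested features and a median standard error (SE) of 0.533 against 0.270. The WT values chose the members, and the height of replicate 6 raises their WT mean, so the sign is no independent result. Without LLPC WT replicate 6 the median was -0.44, and with any other LLPC library left out it lay between -0.99 and -0.79.

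The cKO high plasma cells mostly lay inside the wide WT range. The members were chosen for a wide WT range, which favours this. For 126 of 200 members (63.0%) all 3 cKO high libraries were within the range of the 6 WT libraries, against 45.7% of eligible features. The 2 groups did not overlap for 1 member that was lower in cKO high, where the background was 3.08%, and for 0 that were higher, where it was 0.349%. Within cKO high, replicate 1 was highest and replicate 3 lowest for 126 of 200 members (63.0%), against 40.0% of eligible features. The biological coefficient of variation estimated by edgeR was 0.342 in LLPC, against 0.164 in CD23+ and 0.216 in ABC, so differences had to be larger to be called in plasma cells.

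In CD23+ cells, cKO low against WT asks about the deletion in healthy mice. For cKO high against WT the deletion and the disease state change together and cannot be told apart. The comparison of cKO high with cKO low asks about the disease state among knockout mice. Between cKO low and WT 0 of the 200 members were called by edgeR, where 0.0239% of 12542 features were, and 4 had an unadjusted p under 0.05, where the background was 2.39%. DESeq2 also called 0. The count of 4 became 22 without CD23+ WT replicate 6 (572 of 12369 features), 27 without cKO low replicate 1 (626 of 12924), 15 without cKO low replicate 2 and 33 with the replicate number as a block (905 of 12542). Other libraries left out gave 2 to 8, DESeq2 7 and no count filter 19. The groups did not overlap for 1 member that was higher in cKO low, where the background was 0.566%, and for 0 that were lower, where it was 1.09%. The median log2 fold change was 0.10 in the core group and 0.68 in the shared-spread group, whose median SE was 0.821.

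Between CD23+ cKO high and WT 3 members rose and 0 fell, all 3 from the core group, where the background was 0.391% for rises and 0.0478% for falls. The member with the largest change had 13.6 to 19.7 CPM (median 16.04) in WT and 30.6, 26.4 and 35.4 CPM in cKO high, so that the groups did not overlap. Its log2 fold change was 0.92 with an SE of 0.142 (edgeR adjusted p = 0.00486). A further member had 55.4 to 66.3 CPM (median 60.0) in WT and 89.0, 83.7 and 109.7 CPM in cKO high, a log2 fold change of 0.64 (SE 0.0986, edgeR adjusted p = 0.00486). The third had 29.8 to 36.4 CPM (median 31.7) in WT and 51.6, 41.7 and 44.4 CPM in cKO high, a log2 fold change of 0.51 (SE 0.108, edgeR adjusted p = 0.0417). Every cKO high library was above every WT library for these 3. The count was 0 without cKO high replicate 3, where 14 of 12918 features were called, and 6 with DESeq2, where 114 of 31299 were.

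Groups of CD23+ cKO high and WT did not overlap for 17 members that were higher, where the background was 2.6%, and for 2 that were lower, where it was 3.71%. Unadjusted p was under 0.05 for 38 of 200, where the background was 10.9%. Between cKO high and cKO low 0 members were called by edgeR, where 0% of features were, and DESeq2 also called 0. The unadjusted p was under 0.05 for 20, where the background was 6.47%, and for 34 without cKO low replicate 1. The groups did not overlap for 19 members that were higher in cKO high (background 5.21%) and 2 that were lower (background 5.69%). The CD23+ comparisons share samples, so they are not independent of each other. The members share these libraries too, so the counts of members are not counts of independent results.

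In ABC 2 members rose and 1 fell in cKO high against WT, all from the core group, where the background was 0.543% for rises and 0.59% for falls. The member that rose most had 25.4, 20.2, 25.99 and 16.6 CPM in WT and 49.7, 41.7 and 30.8 CPM in cKO high (log2 fold change 0.90, SE 0.196, edgeR adjusted p = 0.0426). The other had 36.3, 33.4, 44.1 and 41.1 CPM in WT and 64.7, 66.1 and 58.1 CPM in cKO high (log2 fold change 0.70, SE 0.141, edgeR adjusted p = 0.0318). The member that fell had 53.8, 48.1, 44.1 and 50.1 CPM in WT and 34.3, 25.3 and 29.9 CPM in cKO high (log2 fold change -0.69, SE 0.141, edgeR adjusted p = 0.0327). For all 3 the groups did not overlap. The calls were not stable. The count was 0 without WT replicate 1, without cKO high replicate 1 or without cKO high replicate 2, 1 without WT replicate 4 or cKO high replicate 3, and 6 without WT replicate 2. It was also 0 with the replicate number as a block, and 6 with DESeq2. The calls over all features moved too, from 41 of 12640 without cKO high replicate 1 to 290 of 12097 without WT replicate 2.

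Groups of ABC cKO high and WT did not overlap for 28 members that were higher, where the background was 6.17%, and for 4 that were lower, where it was 5.7%. Unadjusted p was under 0.05 for 32 of 200, where the background was 11.8%. As in CD23+, the members share their libraries, so these are not counts of independent results. The core group's median log2 fold change was 0.09 in ABC and 0.12 in CD23+ (cKO high against WT), against -0.01 for all tested features in both. These differences were small beside the spread of the same features in plasma cells.

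The shared-spread group had large fitted differences in B cells and 0 calls. Its median log2 fold change of cKO high against WT was -1.17 in CD23+ and -1.16 in ABC, with 17 of 17 negative in each and median SEs of 0.898 and 1.18. Between CD23+ cKO high and cKO low the median was -2.004 (median SE 1.01). The 17 members share their mice and libraries, so their common sign is not 17 independent results. In LLPC the median was -0.66 with a median SE of 0.725. The cKO high and WT groups of the shared-spread members overlapped in CD23+, ABC and LLPC for 17 of 17.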

How the data were processed

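Per the labels' protocols, spleen cells were sorted by flow cytometry and low-input total RNA was turned into libraries with a Takara SMARTer Pico kit. Per the submitters' processing notes, FastQC, STAR 2.7.1a and featureCounts were used. Genome build, strand setting and molecular identifiers: not given in the sources used here. Reads of overlapping features therefore cannot be told apart. The deposited values are unnormalized whole-number counts per feature, 1 table per library.

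CPM used plain column sums, and levels are log2(CPM + 1). Covariation was read from a principal component analysis of the centred values. Differences were fitted to the counts of each subset alone with R 4.3.3 and edgeR 4.0.16 (filterByExpr, TMM, robust quasi-likelihood test, two-sided, Benjamini-Hochberg over all tested features, adjusted p under 0.05). The code was tested on simulated data. DESeq2 1.42.0, other scalings, filters, limits and pseudocounts, a replicate block and each library left out were alternatives. No p was computed for the members' spread, covariation or mean levels.

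Members and lists were chosen with earlier results of these data known. IDs named are the 2 members of largest SD among those following the leading component. The same number was planned for members opposed to it, of which there were 0. The 2 of largest SD in the remainder were named instead. In 48 pairs of replicates the chi-square per degree of freedom was 3.73 to 205.5 (features summing to 20 counts or more), above sampling noise, and all libraries were kept apart. The groups WT and cKO share replicate numbers but no mice, and p-values judge group differences against the spread between these samples.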

Additional observations from a re-analysis of the deposited data

Results flagged for a closer look

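Dixon's test was applied to 36 sets of values from groups of 4 or 6 libraries and picked out 5, where chance gives about 1 in 20 (1.8 of 36). A gap is the distance of the extreme library from its nearest neighbour, as a share of the whole range. For the core member MGP_BALBcJ_G0020470, LLPC WT replicate 6 had 558 CPM and the others 8.59 to 138 CPM, a gap of 0.764 of the range. For the shared-spread member MGP_BALBcJ_G0036582, LLPC WT replicate 6 had 577 CPM and the others 23.5 to 206 CPM, a gap of 0.67. For the same member, ABC WT replicate 4, from the same mouse, had 259 CPM and the others 12.5 to 40.6 CPM, a gap of 0.886. These members were chosen for their spread in LLPC WT, so those gaps are a description. The number of features with a count was 29517 in CD23+ WT replicate 6, again from that mouse, while the other CD23+ WT libraries had 16913 to 18879, a gap of 0.844. In CD23+ WT replicate 3 the 10 leading features took 14.8% of the counts, against 13.8 to 14.1% in the others, a gap of 0.725.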

How the results depend on the processing

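Lists chosen anew held 130 of the members when totals left out the 10 leading features, 90 with a minimum mean of 50 CPM, 100 with a minimum of 5 CPM and 62 with no fold limit. With TMM the overlap was 134, with a 2-fold limit 147 and with a pseudocount of 5 it was 185. With each LLPC WT library left out it was 116 to 193, lowest without replicate 6. Between 139 and 195 features of these lists followed their leading component under the other settings, and 133 to 194 with a library left out. Features opposed to the component numbered 0 in the list described, 43 with TMM, 6 without the 10 leading features, 5 at 50 CPM, 0 at 5 CPM, 1 with a pseudocount of 5, 1 with no fold limit, 1 with the 2-fold limit and 0 to 9 with a library left out. The cause was not tested.

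Calls for CD23+ cKO low against WT were 0 in all 17 alternatives and those for LLPC 0 in all 13. For CD23+ cKO high against WT the 3 calls (55 of 12542 over all features) became 12 with no count filter (237 of 31358), 6 with DESeq2 (114 of 31299) and 0 to 4 with a library left out (14 of 12918 to 69 of 12898). Against cKO low the 0 calls became 2 with no filter (82 of 31358). The 3 calls in ABC (144 of 12714 over all features) became 17 with no filter (629 of 21563), 6 with DESeq2 (196 members tested, 406 of 21545) and 0 to 6 with a library left out (41 of 12640 to 290 of 12097). Without CD23+ WT replicate 6 and cKO low replicate 3 together, a choice made after seeing the data, CD23+ cKO high against WT gave 4 calls. The cause was not tested.

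The replicate numbers of WT and cKO do not pair the samples. Deviations of same-numbered libraries correlated from -0.2 to 0.51, and in no comparison was every library closest to its own number. With the replicate number as a block, 0 members were called in ABC, 2 in CD23+ cKO high against WT and 0 in the 3 other comparisons. The limits of the data are the 3 to 6 libraries per group, 1 plasma cell library that stands apart, and features without names.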
